A study of Homo sapiens with 24 samples.

Results

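Genes of the bone morphogenetic protein (BMP) pathway were examined in 4 human breast cancer cell lines that carried either a hairpin against ADAR1 or a control hairpin. The set held 10 of the 37416 genes counted: the secreted antagonist NOG, the co-receptor RGMA, the transcriptional repressors TGIF1 and TGIF2, the ligands BMP2, BMP4 and BMP7, and the target genes ID1, ID2 and ID3. Members were found by matching Ensembl identifiers to these symbols, and all 10 were found once. Measured values had a part in the choice. NOG was chosen for its change averaged over the 4 lines, RGMA for its change in HCC1806 and TGIF2 for its change in MDAMB468. For NOG in every line and for RGMA and TGIF2 in those lines and in the average, the hairpin changes below are therefore a description without a test.

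The lines were BT549, HCC1806, MDAMB231 and MDAMB468, which the series labels as triple-negative breast cancer. Each was transduced by lentivirus with shADAR1, a short hairpin RNA against the RNA-editing enzyme ADAR1, or with shNT, a non-targeting hairpin, and kept under puromycin, so every library comes from transduced and drug-selected cells. There were 3 biological replicates in each of the 8 groups, 24 libraries in all, made from total RNA after removal of ribosomal RNA. Whether the replicates were separate transductions is not stated, so the p-values measure the spread between these samples. Hairpin sequences, and whether 1 or several hairpins were used, are not stated in the labels, so the results describe the libraries labelled shADAR1 and not a particular hairpin.

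BMPs are secreted ligands of the TGF-beta family. They assemble type I and type II receptor kinases, which phosphorylate receptor SMADs that enter the nucleus with SMAD4 and switch on targets, among them the ID genes. Noggin, the product of NOG, binds BMPs outside the cell and keeps them from their receptors, RGMA presents BMP ligands to the receptors, and TGIF1 and TGIF2 are homeodomain proteins that bind SMADs and recruit co-repressors. ID proteins lack a DNA-binding region and hold back basic helix-loop-helix transcription factors, and in breast epithelium they are known for their part in proliferation and differentiation.

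Total counts ran from 10370645 to 97218217 per library, and the lowest was MDAMB231 shNT replicate 1. ADAR, the gene that encodes ADAR1, was lower in every shADAR1 library than in any shNT library of its line, and its mean level was between 21.8% (MDAMB231) and 37.1% (MDAMB468) of control. EPCAM, CDH1 and the keratins of a list of 5 epithelial markers summed to between 0.724 and 1.51 CPM in the BT549 libraries. In every library of the other lines the sum was at least 645 CPM. In MDAMB231 shNT it came mostly from KRT8, at 467 CPM, and KRT18, at 223 CPM. CDH1 and KRT5 there were at 0.0739 and 0.00742 CPM, as low as in BT549 shNT (0.0952 and 0.0783 CPM), and EPCAM was at 8.94 CPM. A fibroblast list of 3 genes, nearly all of it from COL1A1, summed to 4417 to 5223 CPM in the BT549 shNT libraries and 6449 to 6949 CPM in the BT549 shADAR1 libraries, and its part in the BT549 results was not tested. A mesenchymal list of 4 genes summed to 48.9 to 68 CPM in the MDAMB468 shNT libraries and 86.2 to 107 CPM in MDAMB468 shADAR1. Its part in the MDAMB468 results was not tested either. In shNT this list summed to 4190 to 5766 CPM in BT549, 4605 to 5241 CPM in MDAMB231 and 78.7 to 274 CPM in HCC1806. ESR1, the oestrogen receptor gene, was at 19.0 CPM ± 1.79 (SD, n = 3) in HCC1806 shNT. It was at 6.84 CPM in MDAMB468 shNT, 0.462 CPM in MDAMB231 shNT and 0.0118 CPM in BT549 shNT. The other genes of that list of 3 receptors did not stand out in HCC1806 shNT. PGR was at 0.063 CPM there, and ERBB2 at 100 CPM, beside 75.9 to 95.4 CPM in shNT of the other lines. Levels are given as CPM, the library's counts rescaled to a common total after TMM (trimmed mean of M values) scaling, and SD is over the 3 replicates of a group. In such bulk RNA, fewer cells that use a gene and less RNA per cell cannot be told apart.

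The promoters of ID1, ID2 and ID3 are printed because these 3 genes varied together between libraries, and that of TGIF2 because it was the member that passed a test in the hairpin comparison. Each runs from 250 bases before to 50 bases after a RefSeq start on GRCh38.p14. Capitals in the ID promoters mark the TATA-box letters TATAA, read on both strands. They also mark the CCAAT-box letters CCAAT, read on both strands as well. Capitals in the TGIF2 promoter mark TGTCA on both strands, the core of the sequence that TGIF homeodomains recognise.
ID1, chr20:31605039-31605338, plus strand: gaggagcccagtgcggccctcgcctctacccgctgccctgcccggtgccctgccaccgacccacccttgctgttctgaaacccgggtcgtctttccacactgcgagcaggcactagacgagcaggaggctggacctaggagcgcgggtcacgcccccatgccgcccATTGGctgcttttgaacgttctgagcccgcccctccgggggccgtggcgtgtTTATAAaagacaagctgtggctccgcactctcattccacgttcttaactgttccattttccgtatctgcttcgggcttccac
ID2, chr2:8681806-8682105, plus strand: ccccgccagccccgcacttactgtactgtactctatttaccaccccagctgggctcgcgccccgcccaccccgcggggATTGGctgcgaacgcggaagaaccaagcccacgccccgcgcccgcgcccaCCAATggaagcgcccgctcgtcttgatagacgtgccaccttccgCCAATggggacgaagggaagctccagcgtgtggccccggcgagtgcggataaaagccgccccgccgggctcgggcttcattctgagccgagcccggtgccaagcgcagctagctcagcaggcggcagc
ID3, chr1:23559452-23559751, minus strand: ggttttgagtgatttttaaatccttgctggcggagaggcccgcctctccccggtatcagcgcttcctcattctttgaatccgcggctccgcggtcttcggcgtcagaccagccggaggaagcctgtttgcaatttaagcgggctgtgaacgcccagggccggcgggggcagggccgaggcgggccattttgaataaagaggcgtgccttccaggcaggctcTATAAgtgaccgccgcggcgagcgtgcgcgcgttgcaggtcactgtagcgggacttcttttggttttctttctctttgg
TGIF2, chr20:36573347-36573646, plus strand: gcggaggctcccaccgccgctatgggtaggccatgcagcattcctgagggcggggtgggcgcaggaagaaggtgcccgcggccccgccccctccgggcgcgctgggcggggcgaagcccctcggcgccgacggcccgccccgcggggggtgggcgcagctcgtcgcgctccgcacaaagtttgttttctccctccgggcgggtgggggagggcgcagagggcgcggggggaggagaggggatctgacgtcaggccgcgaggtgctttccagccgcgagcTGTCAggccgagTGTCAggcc

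ID1 held TATAA 31 bases before its start, overlapped by its reverse complement 32 bases before it, and ID3 held TATAA 29 bases before its start. TATAA was absent from the ID2 window, which held 3 matches to CCAAT, at 172, 122 and 78 bases before the start. ID1 held 1 match, 84 bases before its start, and ID3 held none. Of all 34796 distinct RefSeq promoter windows of this length, 20.5% held TATAA and 34.6% held CCAAT on either strand. The TGIF2 window held TGTCA at 30 and at 42 bases after the start, and 38.9% of all windows held it. The other TGIF2 start in the table had no TGTCA in its window. GGCGCC, the motif that BMP-activated SMADs bind, was found in both TGIF2 windows but in none of the 3 ID windows, and 19.2% of all windows held it. Windows matched 7 of the 10 members, these 4 and RGMA, TGIF1 and BMP4, and none matched NOG, BMP2 or BMP7. These matches describe letters in a window and do not show binding. Sequence outside the windows was not searched, so a motif absent here may lie further from the start.

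The 10 genes differed between the lines before any comparison of hairpins. In the shNT libraries alone, a joint edgeR test of the 4 lines called 10 of the 10 members, beside 85.9% of all 21352 genes tested, so differing between lines was the common state of genes here. For NOG, RGMA and TGIF2, shNT libraries also entered the hairpin change they were chosen for. Their p-values for lines are therefore not independent of that choice. Per kilobase of exon, ID1 was the highest member in HCC1806, with 237 ± 36.8 CPM per kilobase (SD, n = 3), and in BT549, with 172 ± 57.4. ID3 was the highest in MDAMB468, with 32.3 ± 4.92 CPM per kilobase, and ID1 in MDAMB231, with 35.4 ± 12.4. TGIF1 was next in MDAMB468, at 26.9 ± 4.57 CPM per kilobase, and BMP4 next in MDAMB231, at 26.1 ± 6.22. By mean level on the per-length scale, the member at the top thus was a target gene in each of the 4 lines. In MDAMB231 the BMP4 mean lay within the SD of ID1, and the order of members within a line was not tested. The order depended on the scale. In CPM not divided by length, TGIF1 was the highest member in MDAMB468, at 221 CPM beside 58.1 CPM for ID3. BMP4 was the highest in MDAMB231, at 80.3 CPM beside 43.6 CPM for ID1. The listed length was 8222 bases for TGIF1 and 1233 bases for ID1.

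**Figure D1:**
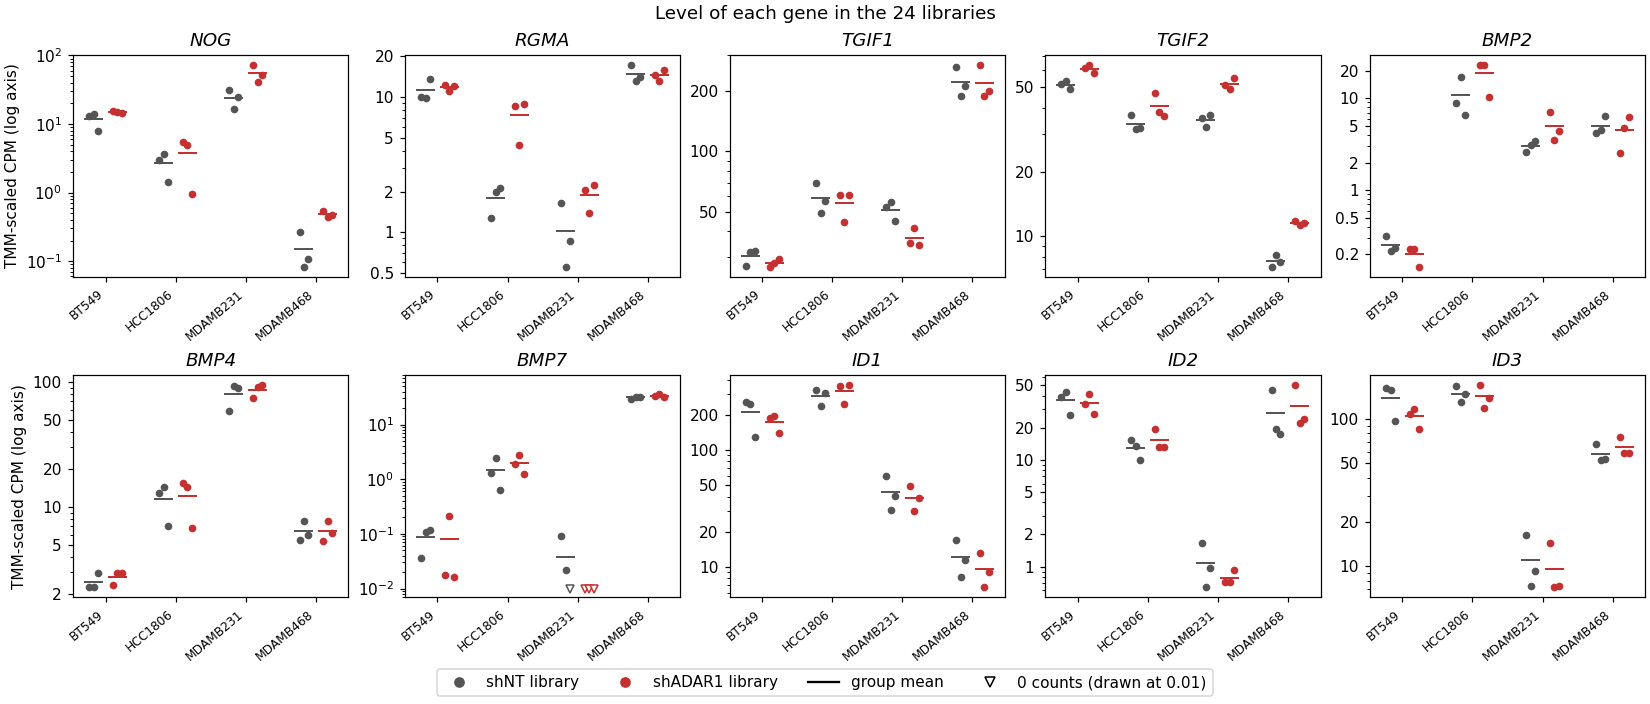
Level of each of the 10 genes in the 24 libraries, as TMM-scaled CPM on a log axis, for shNT and shADAR1 libraries of each line, with bars at the group means and triangles at 0.01 for libraries with 0 counts. The vertical distance between lines is larger than that between hairpins for most genes, as for BMP7, which ran from 0 counts in 4 MDAMB231 libraries to 31.2 CPM on average in MDAMB468 shNT.

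NOG is the inhibitor of the pathway that the comparison began with, a gene of 1 exon on chromosome 17 (56593699 to 56595590, plus strand, as the files list it). In the shNT libraries it was highest in MDAMB231, at 24.3 ± 7.67 CPM (SD, n = 3), then in BT549 at 11.7 ± 3.21, in HCC1806 at 2.69 ± 1.13 and in MDAMB468 at 0.151 ± 0.0992. No neighbours in this order overlapped in range. The joint test of lines in shNT gave an edgeR adjusted p of 3.79e-10.

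With the hairpins compared, NOG in MDAMB231 was at 72.5, 40.9 and 51.6 CPM in the 3 shADAR1 libraries and at 31.8, 16.5 and 24.5 CPM in the 3 shNT libraries. The arms did not overlap, and the log2 ratios of the same-numbered libraries were 1.19, 1.31 and 1.08. The fitted log2 fold change was 1.19 ± 0.39 (SE), and it ran from 0.95 to 1.42 when single libraries were left out. In BT549 NOG was at 15.5, 15.2 and 14.6 CPM in shADAR1 and at 13.2, 13.9 and 8.02 CPM in shNT. These arms did not overlap either, but the distance was small beside the spread of the shNT libraries, and the log2 fold change was 0.36 ± 0.385 (SE).

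In HCC1806 NOG was at 5.38, 4.89 and 0.950 CPM in shADAR1 and at 2.99, 3.64 and 1.45 CPM in shNT. The arms overlapped: replicate 3 was lower with the hairpin and the other replicates were higher. In MDAMB468 it was at 0.530, 0.447 and 0.474 CPM in shADAR1 and at 0.265, 0.0829 and 0.106 CPM in shNT. The arms did not overlap, but the shNT values rest on 7, 4 and 6 counts, under the 10 counts set as a flag for low genes, and the shADAR1 values rest on 14 to 32 counts. The fitted log2 fold changes were 0.45 ± 0.43 (SE) in HCC1806 and 1.83 ± 0.804 (SE) in MDAMB468. Over the 4 lines, 11 of 12 same-numbered pairs were higher with the hairpin, and the average log2 fold change was 0.96 ± 0.265 (SE), which is the value NOG was chosen for. The largest of the 4 line values in it was that of MDAMB468, which rests on these low counts. In that average 2.96% of all genes passed the threshold of an adjusted p of 0.05, 1.26% higher and 1.7% lower, as shares of the 21352 genes tested.

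RGMA is a GPI-anchored co-receptor that also acts as a guidance cue through neogenin. It lies on the minus strand of chromosome 15 (93035273 to 93089204). In shNT it was highest in MDAMB468, at 14.9 ± 2.17 CPM (SD, n = 3), with BT549 at 11.2 ± 2.13 overlapping it in range. HCC1806, at 1.80 ± 0.458 CPM, and MDAMB231, at 1.03 ± 0.570 CPM, also overlapped each other, so the gene fell into a high and a low pair of lines (edgeR adjusted p of 1.8e-11 for the joint test of lines).

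The hairpin difference of RGMA was large in the low pair. In HCC1806 it was at 8.60, 4.42 and 8.97 CPM in shADAR1 and at 1.28, 2.00 and 2.12 CPM in shNT, so that the lowest shADAR1 library was above the highest shNT library. The log2 fold change of 2.00 ± 0.279 (SE) is the value RGMA was chosen for. In that line 0.0468% of all genes tested passed the threshold, 0.0328% higher and 0.0141% lower.

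In MDAMB231 RGMA was at 2.06, 1.38 and 2.25 CPM in shADAR1 and at 1.66, 0.556 and 0.862 CPM in shNT. All 3 same-numbered pairs were higher with the hairpin, while the arms overlapped through shNT replicate 1, the library of lowest depth. The log2 fold change was 1.09 ± 0.334 (SE) and did not pass (edgeR adjusted p of 0.11). It passed with the replicate number as a block (log2 1.12, edgeR adjusted p of 0.0127), with DESeq2 (adjusted p of 0.0248) and without shNT replicate 1 (log2 1.40, edgeR adjusted p of 0.0333). In the high pair the values were close: in BT549 RGMA was at 12.4, 11.2 and 12.1 CPM against 10.1, 9.86 and 13.7 CPM in shNT, and in MDAMB468 at 14.5, 13.2 and 15.8 CPM against 17.3, 13.1 and 14.2 CPM. The log2 fold changes there were 0.09 ± 0.253 and -0.03 ± 0.254 (SE), with edgeR adjusted p of 1 in both.

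TGIF2 was the 1 member, among those not chosen on the comparison, whose hairpin difference passed the threshold in a single line. It is a repressor that binds TGF-beta-activated SMADs, on chromosome 20 (36573488 to 36593950, plus strand). In MDAMB231 TGIF2 was at 51.1, 48.9 and 55.0 CPM in shADAR1 and at 35.7, 32.6 and 36.9 CPM in shNT, with wide separation of the arms. It rose by a log2 fold change of 0.56 ± 0.0981 (SE), or to 147% of control, with an edgeR adjusted p of 0.00157. In this line 2.01% of all genes passed (0.637% higher and 1.37% lower), and 1 of 9 members did. Leaving out any 1 of the 24 libraries gave adjusted p from 0.000636 to 0.0189, whereas a fit of the 6 MDAMB231 libraries alone gave the same log2 0.56 with an adjusted p of 0.0512.

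TGIF2 was also higher in the other lines. In BT549 it was at 61.6, 63.3 and 57.8 CPM in shADAR1 and at 51.5, 53.4 and 49.0 CPM in shNT, without overlap, with a log2 fold change of 0.25 ± 0.0962 (SE) and an edgeR adjusted p of 0.54. In HCC1806 it was at 47.0, 38.2 and 36.7 CPM against 36.8, 31.7 and 32.1 CPM in shNT. There 1 shADAR1 library lay just under the highest shNT library, the log2 fold change was 0.28 ± 0.0971 (SE) and the edgeR adjusted p was 0.845. With the replicate block TGIF2 passed in both lines, with edgeR adjusted p of 0.02 in BT549 and 0.027 in HCC1806, and log2 fold changes of 0.25 and 0.27.

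In MDAMB468, the line it was chosen on, TGIF2 was at 11.8, 11.3 and 11.5 CPM in shADAR1 and at 7.20, 8.19 and 7.57 CPM in shNT, a log2 fold change of 0.59 ± 0.102 (SE). In MDAMB468 0.0375% of all genes passed, 0.00468% higher and 0.0328% lower. The higher share was 1 gene, TGIF2 itself, so it is no background for TGIF2. In the 3 lines it was not chosen on, 9 of 9 same-numbered pairs were higher with the hairpin, and the ratios within a line were close to each other: 0.26, 0.24 and 0.24 on the log2 scale in BT549 and 0.52, 0.59 and 0.57 in MDAMB231. MDAMB468 had the lowest shNT level, 7.65 ± 0.501 CPM (SD, n = 3), against 51.3 ± 2.20 in BT549, 35.1 ± 2.25 in MDAMB231 and 33.5 ± 2.82 in HCC1806, of which the last pair overlapped (edgeR adjusted p of 1.43e-15 for the joint test of lines). TGIF2 shares 308 exon bases with the readthrough gene TGIF2-RAB5IF on the same strand, which had 0 counts in every library.

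**Figure D2:**
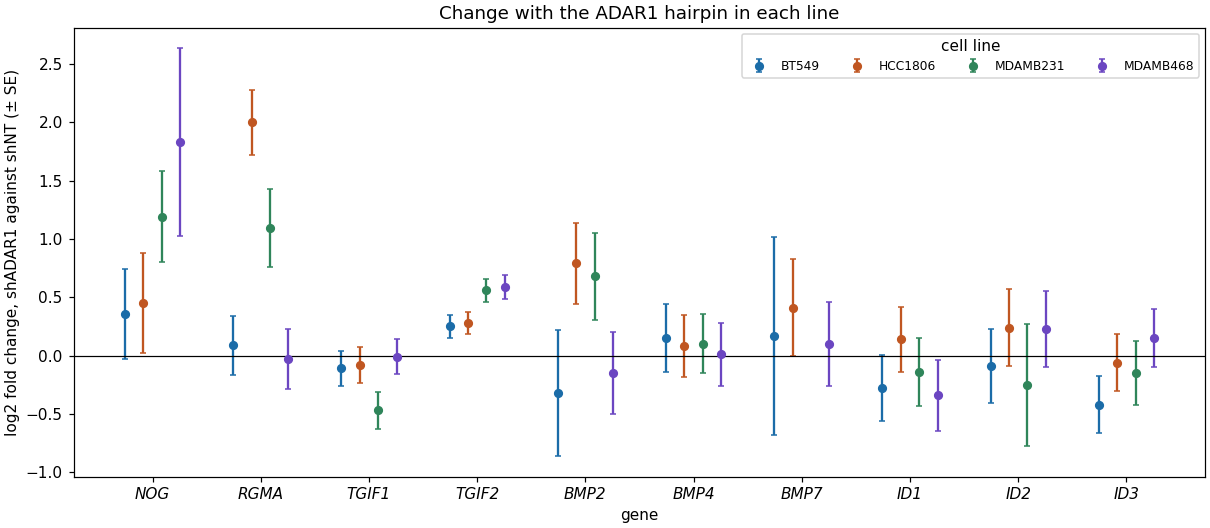
Fitted log2 fold change of shADAR1 against shNT for each gene in each of the 4 lines, with bars of 1 standard error, from the edgeR model over all 24 libraries. TGIF2 lies above 0 in all 4 lines, from 0.25 to 0.59, with the shortest bars, and BMP7 in MDAMB231 is left out because it had at most 1 count per library.

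TGIF1, the paralogue of TGIF2 on chromosome 18 (3411608 to 3459978, plus strand), had the opposite order of lines. In shNT it was at 221 ± 37.5 CPM (SD, n = 3) in MDAMB468, where TGIF2 was lowest, and at 30.2 ± 2.85 CPM in BT549, where TGIF2 was highest. HCC1806, at 58.8 ± 10.2 CPM, and MDAMB231, at 51.3 ± 5.71 CPM, overlapped (edgeR adjusted p of 1.02e-13 for the joint test of lines).

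With the hairpin TGIF1 was lower in MDAMB231, where TGIF2 rose. It was at 35.0, 41.5 and 34.4 CPM in shADAR1 and at 53.0, 55.9 and 44.9 CPM in shNT, and the arms did not overlap. The log2 fold change was -0.47 ± 0.155 (SE), which did not pass on its own (edgeR adjusted p of 0.155) and passed with the replicate block (log2 -0.46 ± 0.0654, edgeR adjusted p of 4.35e-05). In the other lines the log2 fold changes were -0.11 in BT549, -0.08 in HCC1806 and -0.01 in MDAMB468, all with an edgeR adjusted p of 1. On average TGIF1 was at -0.17 ± 0.0764 (SE; edgeR adjusted p of 0.341, and 0.000705 with the block). The difference of its change between lines gave an adjusted p of 1 without and 0.0144 with the block.

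**Figure D3:**
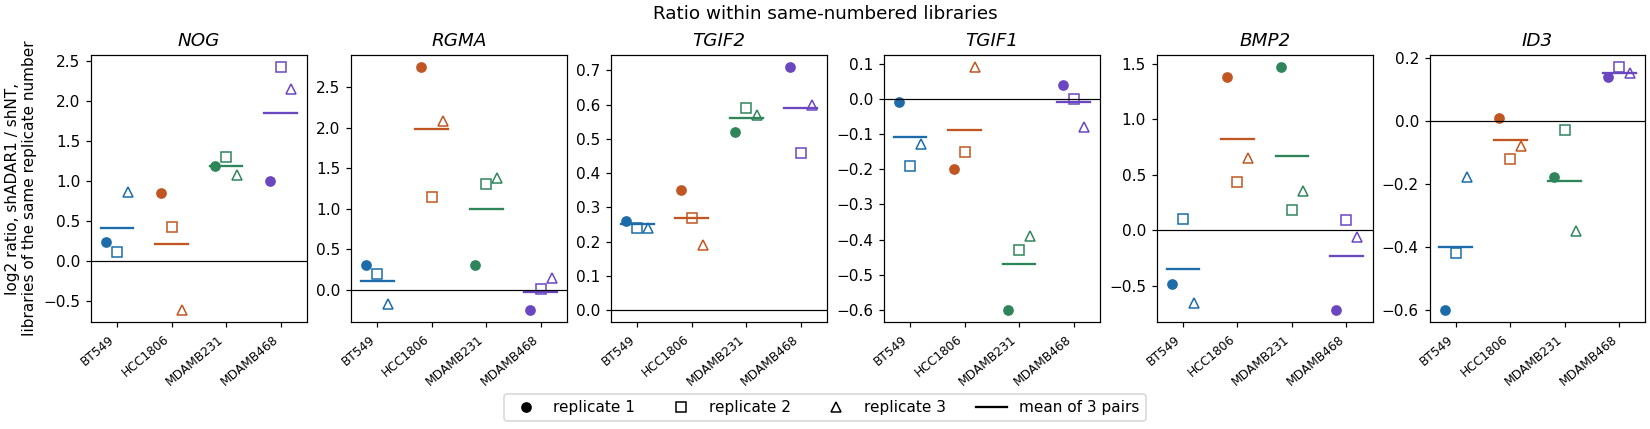
Log2 ratio of shADAR1 to shNT between libraries of the same replicate number, for 6 of the genes in the 4 lines, with a bar at the mean of the 3 pairs; each panel has its own vertical scale. The 12 TGIF2 ratios are all above 0, the 3 TGIF1 ratios in MDAMB231 lie between -0.60 and -0.39, and the ID3 ratios are below 0 in BT549 and above 0 in MDAMB468.

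BMP2, BMP4 and BMP7 encode secreted ligands, and each had its highest level in a different line. BMP2 (chromosome 20, 6767664 to 6780280, plus strand) was at 10.8 ± 5.43 CPM (SD, n = 3) in HCC1806 shNT, 5.04 ± 1.25 in MDAMB468, 3.03 ± 0.433 in MDAMB231 and 0.256 ± 0.0556 in BT549, where 1 library, shADAR1 replicate 3, had 9 counts. No neighbours in that order overlapped (edgeR adjusted p of 2.11e-09 for the joint test of lines).

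In HCC1806 BMP2 was at 23.0, 22.8 and 10.4 CPM in shADAR1 and at 8.84, 16.9 and 6.62 CPM in shNT. All 3 same-numbered pairs were higher with the hairpin while the arms overlapped, because replicate 3 was low in both. The log2 fold change was 0.79 ± 0.345 (SE) with an edgeR adjusted p of 1, and with the replicate block it was 0.80 ± 0.185 with an adjusted p of 0.0233. In MDAMB231 BMP2 was at 7.14, 3.48 and 4.41 CPM against 2.58, 3.07 and 3.45 CPM in shNT, without overlap by a narrow margin. That log2 fold change of 0.68 ± 0.372 (SE) did not pass (edgeR adjusted p of 0.52, and 0.132 with the block). In BT549 and MDAMB468 the log2 fold changes were -0.32 ± 0.542 and -0.15 ± 0.353 (SE), with adjusted p of 1.

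BMP4 (chromosome 14, 53949736 to 53958761, minus strand) was mostly a transcript of MDAMB231. It was at 75.0, 90.6 and 94.1 CPM in the shADAR1 libraries of that line and at 58.3, 93.5 and 89.0 CPM in shNT. The other lines had shNT levels of 11.5 ± 3.97 CPM (SD, n = 3) in HCC1806, 6.39 ± 1.22 in MDAMB468 and 2.51 ± 0.382 in BT549, and the first pair of these overlapped (edgeR adjusted p of 1.92e-13 for the joint test of lines). The arms overlapped in all 4 lines, and the log2 fold changes were 0.15, 0.08, 0.10 and 0.01 in BT549, HCC1806, MDAMB231 and MDAMB468. None passed, in any line or on average (edgeR adjusted p from 0.921 to 1).

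BMP7 (chromosome 20, 57168748 to 57266629, minus strand) was a transcript of MDAMB468. It was at 32.6, 35.9 and 31.9 CPM in the shADAR1 libraries and at 29.8, 31.7 and 32.2 CPM in the shNT libraries of that line, a log2 fold change of 0.10 (edgeR adjusted p of 1). HCC1806 followed at 1.46 ± 0.933 CPM (SD, n = 3) in shNT, 21.4-fold lower than MDAMB468. In BT549 the libraries had 1, 19 and 1 counts in shADAR1 and 2, 7 and 5 in shNT, and in MDAMB231 they had 0 in shADAR1 and 1, 1 and 0 in shNT. In these 2 lines 11 of the 12 libraries were under 10 counts, no fold is given for MDAMB231, and no average over lines is given for BMP7. The joint test of lines in shNT gave an edgeR adjusted p of 5.41e-13.

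The ID genes, the classic transcriptional readout of BMP signalling, did not pass the threshold in any line without the replicate block, and with it ID3 passed in BT549. ID1 lies on chromosome 20 (31605283 to 31606515, plus strand). In shNT it was at 292 ± 45.3 CPM (SD, n = 3) in HCC1806, 212 ± 70.8 in BT549, 43.6 ± 15.3 in MDAMB231 and 12.2 ± 4.31 in MDAMB468, and the first pair overlapped. ID3, on chromosome 1 (23557918 to 23559794, minus strand), was at 149 ± 19.7 CPM in HCC1806, 140 ± 36.6 in BT549, 58.1 ± 8.84 in MDAMB468 and 11 ± 4.70 in MDAMB231. ID2, on chromosome 2 (8678845 to 8684453, plus strand), was at 36.1 ± 8.99 CPM in BT549, 27.3 ± 15.3 in MDAMB468, 12.9 ± 2.73 in HCC1806 and 1.09 ± 0.518 in MDAMB231. The 3 genes thus had different orders of lines, MDAMB231 being lowest for ID2 and ID3 and MDAMB468 for ID1, with edgeR adjusted p for the joint test of lines of 1.33e-11, 1.25e-09 and 7.27e-11 for ID1, ID2 and ID3. SMAD4, the partner of receptor SMADs, was at 2.83 ± 1.18 CPM (SD, n = 3) in MDAMB468 shNT and 3.07 ± 0.367 in shADAR1. In shNT of BT549, MDAMB231 and HCC1806 it was at 55.8 ± 1.3, 43.4 ± 4.05 and 25.3 ± 2.14 CPM. Its part in the ID results of MDAMB468 was not tested.

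ID3 in BT549 was at 109, 118 and 86.3 CPM in shADAR1 and at 164, 157 and 97.7 CPM in shNT. All 3 pairs were lower with the hairpin and the arms overlapped through replicate 3, which was low in both. The log2 fold change was -0.42 ± 0.244 (SE) with an edgeR adjusted p of 0.916, and with the replicate block it was -0.40 ± 0.065 with an adjusted p of 0.000466. In MDAMB468 ID3 was at 75.5, 59.1 and 59.3 CPM against 68.3, 52.6 and 53.4 CPM in shNT, with log2 ratios of 0.14, 0.17 and 0.15 in the 3 pairs, a small difference in the other direction. The difference of the ID3 change between lines had an edgeR adjusted p of 1, and of 0.00641 with the block.

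ID1 in MDAMB468 was at 13.2, 6.71 and 9.01 CPM in shADAR1 and at 16.8, 8.25 and 11.5 CPM in shNT. The 3 pair ratios were -0.35, -0.30 and -0.35 on the log2 scale although the arms overlapped, and the log2 fold change was -0.34 ± 0.303 (SE; edgeR adjusted p of 1, and 0.0846 with the block). In BT549 ID1 was at 189, 196 and 139 CPM against 257, 249 and 130 CPM, a log2 fold change of -0.28 ± 0.281 (SE; edgeR adjusted p of 1, and 0.0745 with the block). In HCC1806 and MDAMB231 it was at 0.14 and -0.14. On average over the lines, ID1 was at -0.16 ± 0.144 and ID3 at -0.12 ± 0.126 (SE), with edgeR adjusted p of 0.767 and 0.82, and of 0.0259 and 0.0244 with the block. For ID2 the log2 fold changes were -0.09, 0.24, -0.25 and 0.23 in BT549, HCC1806, MDAMB231 and MDAMB468, with arms that overlapped in every line.

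Variation between replicates was shared by the ID genes. In BT549 replicate 3 was the lowest for ID1, ID2 and ID3 in both arms, and in MDAMB468 replicate 1 was the highest for all 3 genes in both arms. In MDAMB231 replicate 1 was the highest for ID1 and ID3 in both arms. Over the 24 libraries, deviations from the group mean of log2 CPM correlated with Pearson r of 0.85 between ID1 and ID3, 0.77 between ID1 and ID2 and 0.64 between ID2 and ID3. These are descriptions over libraries that share lines and replicate numbers. The same deviations correlated with the log2 total count of a library at -0.48 for ID1, -0.59 for ID2 and -0.63 for ID3. Pooled over the groups, the ID genes thus tended to be higher in the shallower libraries. BT549 went the other way. Its shNT replicate 3, with the lowest total count of that group (42744862), was lowest for all 3 genes. Its shADAR1 replicate 2, the deepest of that group (97218217), was highest for all 3. The part of depth was not tested. The correlation of such deviations was 0.58 between NOG and ID2, -0.61 between BMP4 and ID1, and -0.63 between TGIF1 and BMP2. It was -0.52 between NOG and the log2 total count.

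**Figure D4:**
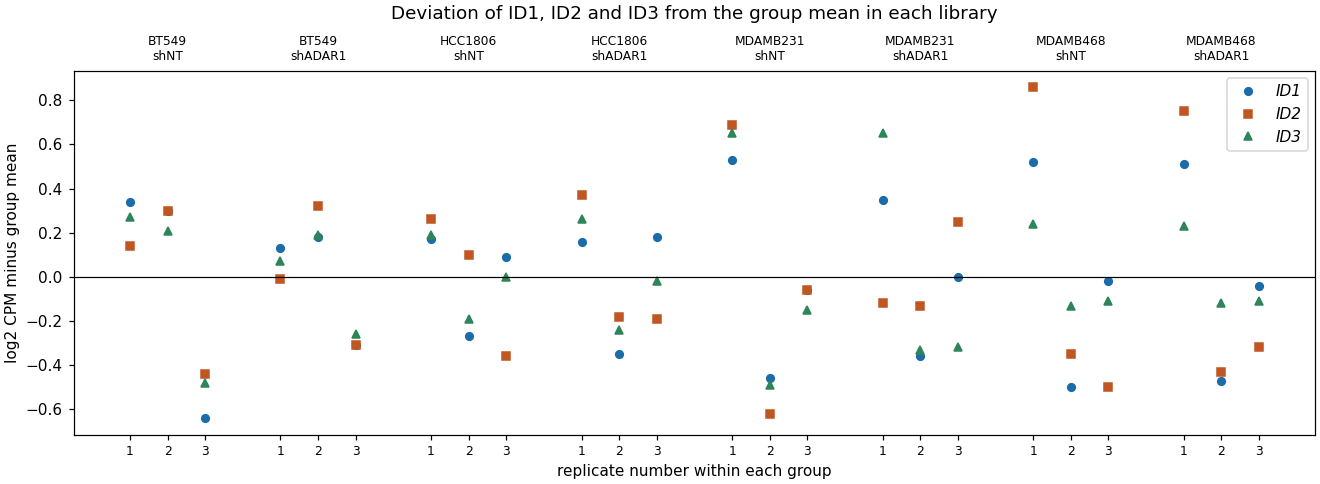
Log2 CPM of ID1, ID2 and ID3 in each library minus the mean of its group, by replicate number within the 8 groups. The 3 symbols of a library mostly lie on the same side of 0, and in MDAMB468 the pattern over replicate numbers is alike in shNT and shADAR1.

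Counted over the members not chosen on a comparison, 0 of 9 passed in BT549, beside 0.473% of all genes tested (0.131% higher and 0.342% lower). HCC1806 and MDAMB468 each had 0 of 8, beside 0.0468% and 0.0375% of all genes. MDAMB231 had 1 of 9, beside 2.01%. On average 0 of 7 passed, beside 2.96%, and 0 of 7 did for a difference of the hairpin effect between lines, which 0.0234% of all genes showed. In these comparisons of 0, edgeR gave an unadjusted p under 0.05 to 1 member in BT549 (TGIF2) and 2 in HCC1806 (BMP2 and TGIF2). It did so for 0 in MDAMB468, 1 on average (TGIF1) and 0 between lines. The share of all genes at that unadjusted level was 6.42% in BT549, 4.35% in HCC1806, 3.76% in MDAMB468, 12.8% on average and 4.44% between lines. DESeq2 called 0 members in each. Of all 21352 genes it called 279 in BT549, 40 in HCC1806, 42 in MDAMB468, 1045 on average and 123 between lines. With the replicate block the counts were 2 in BT549 (ID3 and TGIF2), 2 in HCC1806 (BMP2 and TGIF2), 3 in MDAMB231 (RGMA, TGIF1 and TGIF2), 0 in MDAMB468, 3 on average (ID1, ID3 and TGIF1) and 2 between lines (ID3 and TGIF1). The block also raised the share of all genes called, to 5.14% in BT549, 2.1% in HCC1806, 11.4% in MDAMB231, 1.66% in MDAMB468, 13.2% on average and 4.69% between lines.

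The rest of the pathway was followed through 62 further genes in 5 lists, of which 56 passed the filter on low counts. In no single line did any of the 56 pass, although 9 had an edgeR unadjusted p under 0.05 in BT549, 8 in MDAMB231, and 1 each in HCC1806 and MDAMB468. Over all genes tested that unadjusted share was 6.42% in BT549, 11.7% in MDAMB231, 4.35% in HCC1806 and 3.76% in MDAMB468. DESeq2 called 1 of the 56 in BT549, 2 in MDAMB231 and 0 in the other lines. Of all 21352 genes tested it called 279 in BT549, 786 in MDAMB231, 40 in HCC1806 and 42 in MDAMB468. The median log2 fold change of the 56 was 0.02, 0.03, -0.07 and 0.00 in BT549, HCC1806, MDAMB231 and MDAMB468, beside 0.01, 0.00, 0.00 and 0.01 over all genes tested. With the replicate block 9, 2, 12 and 1 of the 56 passed in that order of lines, beside 5.14%, 2.1%, 11.4% and 1.66% of all genes. Between lines in shNT 51 of 56 differed, beside 85.9% of all genes tested.

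On average over the lines 3 of the 56 passed, 2 higher and 1 lower, beside 2.96% of all genes (1.26% higher and 1.7% lower). SKIL, a co-repressor of SMADs, rose by a log2 fold change of 0.28 ± 0.0662 (SE, edgeR adjusted p of 0.0195), from 25.2 ± 0.666 to 32.5 ± 0.468 CPM (SD, n = 3) in MDAMB231. SMURF2, a ubiquitin ligase that targets SMADs and receptors for degradation, fell, with a log2 fold change of -0.33 ± 0.0826 (SE) and an adjusted p of 0.0285, from 265 ± 12.3 to 194 ± 9.90 CPM in MDAMB231 and from 112 ± 5.25 to 80.6 ± 4.15 CPM in BT549. GATA3, a luminal transcription factor that BMP signalling can induce, rose by 0.33 ± 0.0897 (SE, edgeR adjusted p of 0.0486), most of it from BT549, where it was at 0.307 ± 0.017 CPM in shNT and 0.591 ± 0.215 CPM in shADAR1. When each of the 24 libraries was left out in turn, SKIL passed in 22 fits, SMURF2 in 14 and GATA3 in 6, with highest adjusted p of 0.0544, 0.0603 and 0.172. By role, 2 of 13 SMAD proteins and regulators and 1 of 10 further targets passed on average, and 0 of 9 ligands, 0 of 14 secreted antagonists and 0 of 10 receptors did.

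With the replicate block 3 of the 14 secreted antagonists passed in BT549 (FST, FSTL1 and FSTL3), beside 5.14% of all genes tested. In MDAMB231 4 passed (BMPER, CRIM1, FST and FSTL1), beside 11.4%, and in HCC1806 1 (FSTL1), beside 2.1%. On average 3 passed (FST, FSTL1 and FSTL3), beside 13.2%, and in MDAMB468 0 did. FSTL1 was lower and the others were higher. FST and FSTL1, picked after their values were seen, changed in opposite directions in BT549 and MDAMB231. Follistatin, encoded by FST, binds activins and some BMPs, and in MDAMB231 it was at 25.4 ± 3.68 CPM (SD, n = 3) in shNT and 57.1 ± 16.9 CPM in shADAR1. Its log2 fold change there was 1.16 ± 0.367 (SE; edgeR adjusted p of 0.129, and 8.5e-08 with the block). FSTL1, a secreted glycoprotein that binds BMP4, was at 161 ± 11 CPM in shNT and 90.2 ± 17.8 CPM in shADAR1 of the same line, with a log2 fold change of -0.83 ± 0.245 (SE; edgeR adjusted p of 0.0922, and 1.04e-07 with the block). In BT549 FST was at 5.23 ± 0.720 and 8.93 ± 1.75 CPM and FSTL1 at 563 ± 17.3 and 388 ± 39.4 CPM in shNT and shADAR1, with adjusted p of 0.000146 and 4.98e-05 in the blocked edgeR fit and of 0.786 and 0.72 without the block.

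**Figure D5:**
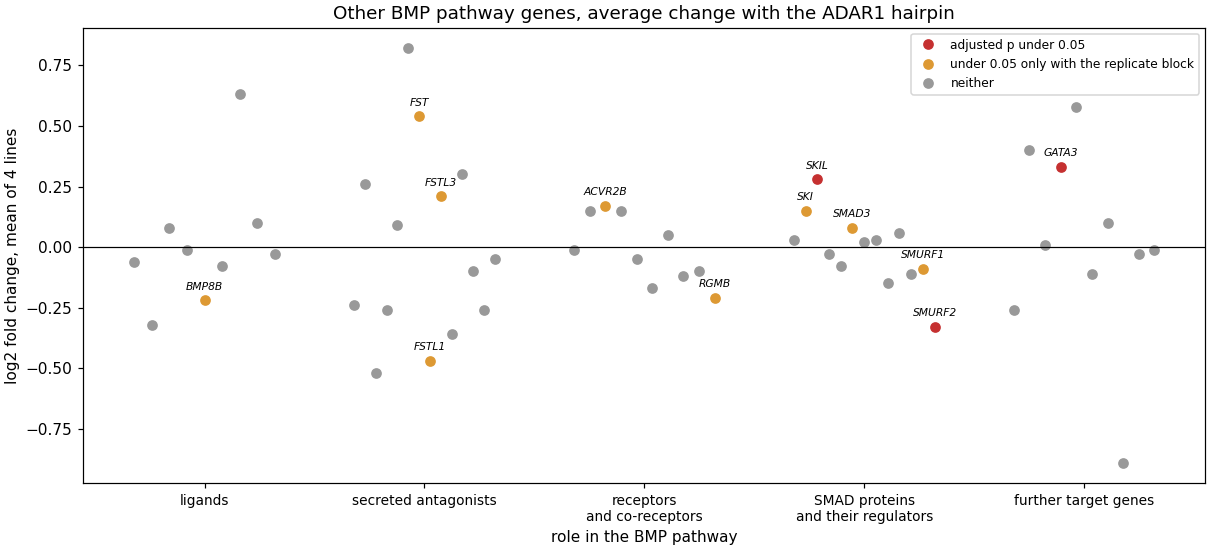
Average log2 fold change of shADAR1 against shNT over the 4 lines for the 56 other pathway genes tested, by role, from the edgeR model without the block. The genes past an adjusted p of 0.05 (SKIL, GATA3 and SMURF2) are red, those past it with the replicate block alone are orange, and the highest and lowest points are grey.

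Genes whose log2 CPM followed a member most closely over the 24 libraries were ranked by Pearson r. For NOG the 3 highest Pearson r of 21045 genes searched were GNAI2 (0.976), SAMHD1 (0.971) and BNIP3 (0.968). For RGMA they were SMIM19 (0.943), RFWD3 (0.925) and TMEM45A (0.923), the lowest set among the members examined. TGIF2 had EHD2 (0.977), ENSG00000272327 (0.975) and HRH1 (0.973), and BMP4 had C4BPB (0.988), SP140 (0.979) and STAMBPL1 (0.977). BMP7 had CMPK2 (0.987), IFNGR1 (0.983) and LINC01819 (0.982). ID2 had BOLA1 (0.978), NETO2 (0.975) and KCNG1 (0.974), and ID3 had C7orf50 (0.98), PAX6 (0.976) and GOLGA8A (0.972). With 4 lines behind 24 libraries, such values can follow differences between lines alone. The levels of these genes by line were not examined, and no p is given.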

How the data were processed

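Total RNA was sequenced from 24 libraries in 8 groups of 3. The deposited files give, per the file headers, a whole-number read count, CPM and RPKM for each gene. The deposited CPM values equalled counts scaled by the library total (largest difference 4.7e-11). The deposited RPKM values were CPM per kilobase of listed gene length (largest difference 1.3e-10) and served only as a check. STAR, Subread featureCounts and edgeR are named in the submitters' processing notes. Genome build, annotation and use of strand are not given in the sources used here. The gene spans of all 10 members equalled those of GENCODE 29, and coordinates are as the files list them. Symbols came from a name table and matched 33972 of 37416 genes.

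The 2-sided quasi-likelihood test of edgeR 4.0.16, run under R 4.3.3, was applied to the counts in 1 model with 8 group means, TMM scaling (factors 0.924 to 1.12) and filterByExpr, which left 21352 genes. Benjamini-Hochberg adjustment ran over those genes with a threshold of 0.05, and the common biological coefficient of variation was 0.176. Contrasts were shADAR1 against shNT in each line, their average, their difference between lines, and the lines in shNT. Alternatives were other scalings and filters, DESeq2 1.42.0, the 6 libraries of a line alone, a replicate block and leaving out each library. Log2 CPM for correlations used a prior count of 2. No replicates were merged, since the chi-square between any 2 of a group was at least 11.8 times its degrees of freedom.

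Replicate numbers in the labels were read as pairing the arms within a line. Over the 11794 genes that reached 10 counts in each library, deviations from the group mean correlated between same-numbered libraries in all 12 pairs, from 0.212 to 0.746, and every library correlated best with its own number. Over all 21352 genes the third MDAMB468 pair was at 0.0651. The labels do not say what a number stands for.

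The members and lists were chosen with earlier results of these data known. Values are named for the 10 members, for ADAR, for pathway genes past the threshold and for the 3 genes most like a member (those of ID1 are not reported here). FST, FSTL1 and SMAD4 were named after their values were seen, as were the marker genes ESR1, PGR, ERBB2, COL1A1, EPCAM, CDH1, KRT5, KRT8 and KRT18.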

Additional observations from a re-analysis of the deposited data

How the results depend on the processing

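No called result for a member changed direction, while results that passed no test did. Of the values of single members under settings that keep all libraries in a comparison, 397 stayed on their side of the threshold or within the spread between pairs. A further 12 passed in addition and 1 no longer did, which was TGIF2 in MDAMB231 with the 6 libraries of that line alone (adjusted p of 0.0512). Among 323 log2 fold changes under these settings 1 changed sign, the ID2 average (0.03, and -0.01 with DESeq2). Among 1200 with single libraries left out 36 did, in 14 results, as for ID2 in MDAMB468 without shADAR1 replicate 1 (0.23 to -0.25), BMP7 in BT549 without shADAR1 replicate 2 (0.17 to -2.17) and ID3 in MDAMB231 without shNT replicate 1 (-0.15 to 0.17). Of the 12, 11 came from the replicate block, which treats same-numbered libraries as pairs, and 1 from DESeq2. Genes called over the whole table depended more on the setting. With the replicate block they numbered 1098 in BT549, 448 in HCC1806, 2434 in MDAMB231, 354 in MDAMB468, 2820 on average and 1002 between lines, and members called numbered 2, 2, 3, 0, 3 and 2, while the block changed no other call of a member. Without it the gene counts were 101, 10, 429, 8, 632 and 5. DESeq2 called 279, 40, 786, 42, 1045 and 123 genes and 2 members in MDAMB231. With the 6 libraries of a line alone BT549 had 226 genes, MDAMB468 21 and MDAMB231 117, of which 0 were members. In MDAMB231 3 of 8 members had an unadjusted p under 0.05 in that fit, beside 10.6% of all genes tested. HCC1806 had 0, with 426 genes at that unadjusted level. Restricting the test to genes that reach 10 counts in each library gave 189 in BT549, 16 in MDAMB468, 25 between lines and, from fewer genes tested, 11286 between lines in shNT, where 18341 were called otherwise. Without a filter on low counts there were 18 in HCC1806 and 22 between lines. The cause of these differences was not tested. Leaving out each library gave 61 to 122 genes in BT549, 4 to 15 in HCC1806, 202 to 526 in MDAMB231, 3 to 13 in MDAMB468, 500 to 706 on average, 2 to 14 between lines and 18261 to 18680 between lines in shNT. Members called in MDAMB231 were 1 to 2, RGMA being added without shNT replicate 1. Depth limits NOG in MDAMB468, BMP2 in BT549, and BMP7 in BT549 and MDAMB231, where libraries had under 10 counts.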
